A study of Mus musculus with 21 samples.

Results

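The transcripts described here are those of 9 citric acid cycle enzymes and enzyme subunits, Cs, Idh3a, Idh3b, Ogdh, Suclg1, Sdha, Sdhb, Fh1 and Mdh2, taken by gene name from the 16318 genes of the deposited table. All 9 were found there, and all 9 passed the filter on low counts that left 16303 genes for testing. They were measured by RNA sequencing of the whole brain in 21 mice of the SAMP8 strain, which is bred for accelerated senescence, and every animal was 6 months old when its brain was taken. HsTX1[R14A], a peptide that blocks the voltage-gated potassium channel Kv1.3, was given under the skin at 1 mg/kg on alternate days for 8 weeks to 3 female and 6 male mice. The 12 comparison mice, 6 female and 6 male, received phosphate-buffered saline (PBS) on the same schedule. Each library was made from 1 mouse, and no strain without accelerated senescence was among the samples, so every comparison is within SAMP8.

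The citric acid cycle runs in the mitochondrial matrix. It oxidizes the acetyl group of acetyl-CoA to carbon dioxide and passes the electrons to the respiratory chain as NADH and reduced FAD. In neurons and glia the same intermediates also feed the synthesis of glutamate, GABA and aspartate, so the cycle serves both energy supply and transmitter metabolism. Its enzymes are encoded in the nucleus and imported, and several of them are complexes whose subunits come from unlinked genes.

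The 9 genes lie on 9 different chromosomes (GRCm38, GENCODE annotation). Cs, citrate synthase, which joins acetyl-CoA to oxaloacetate, spans 128337734-128362479 on the plus strand of chromosome 10. Idh3a (chromosome 9, 54586334-54604661, plus) encodes the catalytic subunit of the NAD-dependent isocitrate dehydrogenase, and Idh3b (chromosome 2, 130279309-130284547, minus) one of its partner subunits. Ogdh (chromosome 11, 6291633-6356642, plus) encodes the E1 subunit of the 2-oxoglutarate dehydrogenase complex, and Suclg1 (chromosome 6, 73248382-73276911, plus) the alpha subunit shared by both succinyl-CoA ligases. Sdha (chromosome 13, 74322254-74350280, minus) and Sdhb (chromosome 4, 140961203-140979193, plus) are the flavoprotein and the iron-sulfur subunit of succinate dehydrogenase, which is also complex II of the respiratory chain. Fh1 (chromosome 1, 175600374-175625635, minus) is fumarase and Mdh2 (chromosome 5, 135778480-135790398, plus) the mitochondrial malate dehydrogenase that regenerates oxaloacetate. Ogdh has the longest annotated transcript of the 9, at 4127 bases, followed by Cs with 3003, Sdha with 2900, Suclg1 with 2767, Fh1 with 2636, Idh3a with 2580, Idh3b with 2049, Mdh2 with 1606 and Sdhb with 1232. The median over all tested genes was 3283.5 bases. Fh1 overlaps Kmo on the opposite strand and the last bases of Idh3b overlap Nop56, and since the sources differ on the library kit, reads of such partners may not have been separated by strand.

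Promoter sequence (RefSeq, GRCm38.p6) was at hand for 8 of the 9 members, all but Idh3a. The sequences below are shown because they belong to the members called higher after treatment, Cs and Ogdh, and to the 2 succinate dehydrogenase subunits whose levels lay on opposite sides of PBS. Capitals mark matches, on either strand, to the NRF-1 motif (GCGCA, any base, then GCGC) or its shorter form GCATGCGC, the cAMP response element TGACGTCA, the CCAAT box and the GC box GGGCGG. The stretches of Cs, Ogdh and Sdha end before the start of the gene in both RefSeq and GENCODE. That of Sdhb shows only the 30 bases around its NRF-1 match, which lie before the RefSeq start but just inside the GENCODE gene span given above.
Cs, chr10:128337607-128337726, plus strand: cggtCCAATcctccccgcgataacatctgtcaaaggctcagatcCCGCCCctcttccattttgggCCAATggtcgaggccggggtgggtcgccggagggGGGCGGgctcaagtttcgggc
Ogdh, chr11:6291477-6291596, plus strand: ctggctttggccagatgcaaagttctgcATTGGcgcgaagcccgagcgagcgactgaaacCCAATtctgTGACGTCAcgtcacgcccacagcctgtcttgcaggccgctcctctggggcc
Sdha, chr13:74350281-74350400, minus strand: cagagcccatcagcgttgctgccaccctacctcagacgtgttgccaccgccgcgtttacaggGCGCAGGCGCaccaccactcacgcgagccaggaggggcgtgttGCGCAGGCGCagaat
Sdhb, chr4:140961206-140961235, plus strand: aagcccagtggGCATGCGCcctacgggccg

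The motifs were sought in windows from 250 bases before to 50 bases after each RefSeq start. The 8 members have 13 such windows, 6 of them overlapping or neighbouring windows of Ogdh and 1 for each other member. The CCAAT box was found in 11 of the 13 windows (6 members) and in 37.389% of all 32817 mouse promoter windows, and the GC box in 8 of the 13 (5 members) and in 35.631% of all windows. The longer NRF-1 motif occurred in 1 of the 13 windows, that of Sdha, against 4.592% of all windows, and GCATGCGC in 3 windows of Ogdh and Sdhb, against 2.709%. The cAMP response element was in 4 windows of Ogdh and Mdh2, against 1.792% of all windows. TATAAA was in 13.621% of all windows and in 0 of the 13. Sdha and Sdhb both hold an NRF-1 match, and Cs holds neither form. These matches are letters in a window and were not tested for binding.

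In the 12 PBS mice all 9 transcripts were abundant. Levels between genes were compared as CPM, the count scaled to the size of its library, per kilobase of the principal transcript. Mdh2 stood highest at 169 ± 7.89 CPM per kb (mean ± SD, n = 12), and Idh3b followed at 135 ± 19.8. Sdha (104 ± 9.76) and Sdhb (103 ± 31.8) came next, and their order held in only 8 of the 12 mice. Idh3a (77.9 ± 8.54) and Cs (74.4 ± 6.91) did not differ beyond their spread either, with Idh3a above Cs in 7 of 12 mice. Suclg1 was at 56.6 ± 9.79 and Ogdh at 49.0 ± 10.5, an order that held in 8 of 12 mice and turned when the longest transcript was used as the length. Fumarase was lowest at 23.1 ± 3.07 CPM per kb, below Ogdh in 12 of 12 mice.

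The members differed widely in how steady they were between PBS mice. The coefficient of variation of the CPM, which needs no length, was 4.67% for Mdh2, 9.29% for Cs, 9.39% for Sdha, 10.97% for Idh3a, 13.3% for Fh1, 14.7% for Idh3b, 17.3% for Suclg1, 21.5% for Ogdh and 30.8% for Sdhb. Sdhb, an obligate partner of Sdha in complex II, thus varied over a 72.8 to 197 CPM range in mice that had received the same treatment.

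To see which cycle transcripts differed after HsTX1[R14A], the 9 treated mice were compared with the 12 PBS mice with sex in the model. Cs and Ogdh were higher and Idh3b was lower in treated mice, and the other 6 members were not called at a false discovery rate of 0.05. Thus 3 of the 9 members were called, 2 higher and 1 lower, against 31.6% of all tested genes called in either direction, 15.5% higher and 16.1% lower. At 3 of 9, the share of members called was close to that of the whole table. The median log2 fold change of the 9 members was -0.09, against -0.01 over all genes.

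**Figure D1:**
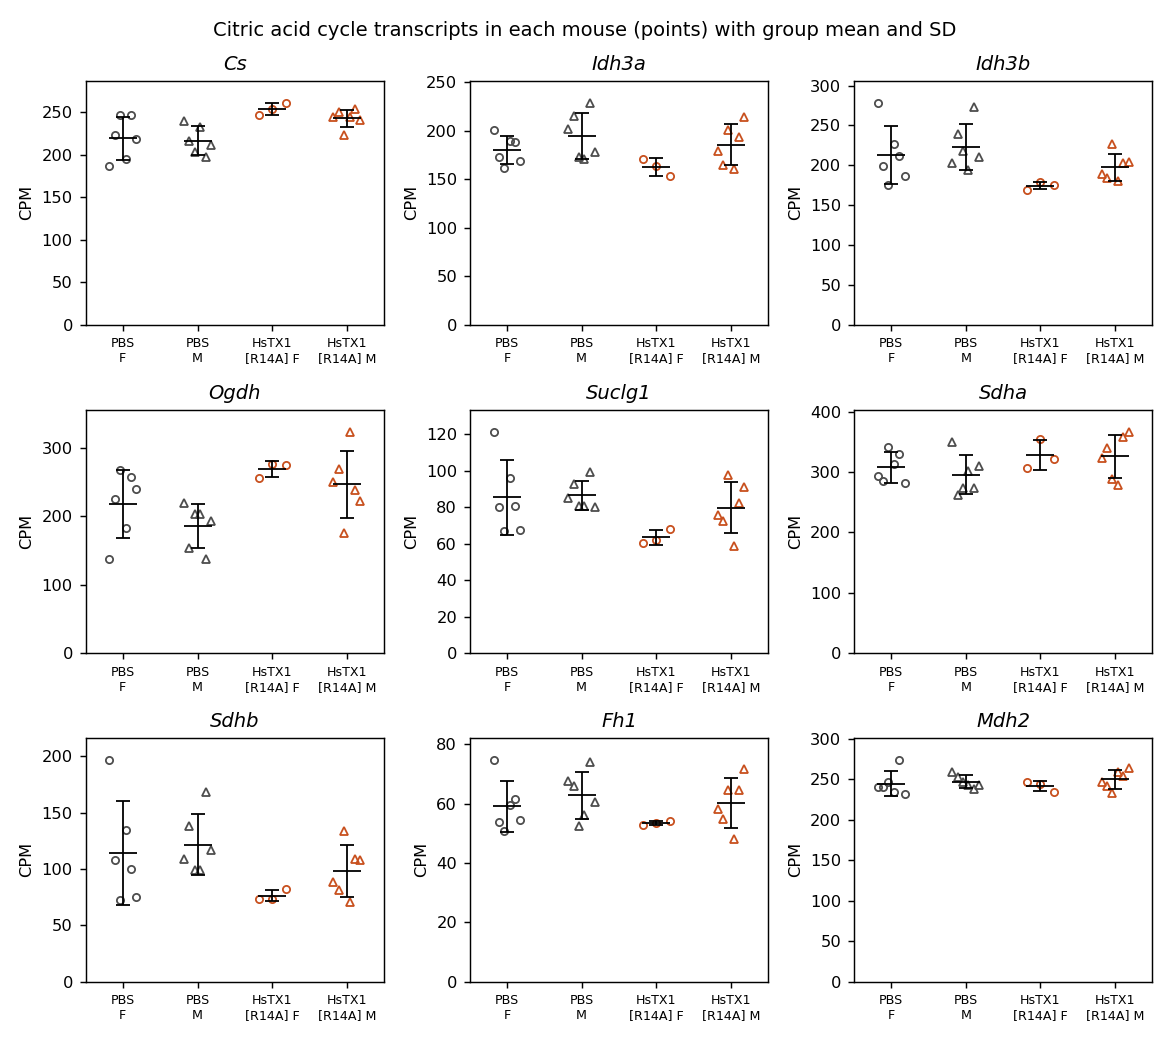
Level of each of the 9 transcripts in CPM (linear axes from 0) in PBS females and males (grey) and HsTX1[R14A] females and males (orange); each point is 1 mouse, circles are female and triangles male, and the black marks give the group mean and SD. Cs in treated mice lay between 223 and 260 CPM, Mdh2 averaged 246 in PBS and 247 in treated mice, and Sdhb showed the widest scatter among PBS mice.

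The entry step, citrate synthase, had the smallest adjusted p of the 9 members. Cs ran from 186 to 246 CPM (median 217) in PBS mice and from 223 to 260 CPM (median 246) in treated mice. All 9 treated mice lay above the PBS median, 5 of them above the highest PBS mouse, though the ranges overlapped. The treated females were at 246, 254 and 260 CPM. The log2 fold change was 0.18 ± 0.06 (SE, adjusted p = 0.0278).

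For the isocitrate dehydrogenase subunits, Idh3b ran from 176 to 278 CPM (median 211) in PBS mice and from 170 to 226 CPM (median 184) in treated mice. Of the 9 treated mice, 8 lay below the PBS median and 2 below the lowest PBS mouse. Its log2 fold change was -0.22 ± 0.08 (adjusted p = 0.0442). Idh3a, the catalytic partner, was at 187 ± 20.5 CPM (mean ± SD) in PBS mice and 178 ± 20.6 in treated mice, and its log2 fold change of -0.10 ± 0.07 was not called (adjusted p = 0.263).

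Ogdh, whose enzyme is a control point of cycle flux, had the largest log2 fold change of the called members. It ran from 137 to 268 CPM (median 204) in PBS mice and from 175 to 324 CPM (median 256) in treated mice. The groups overlapped, with 8 of 9 treated mice above the PBS median and 4 above the highest PBS mouse. The 3 treated females were at 256, 277 and 275 CPM, and the log2 fold change over both sexes was 0.37 ± 0.12 (adjusted p = 0.0296). For the next enzyme, Suclg1 was at 85.9 ± 14.9 CPM in PBS mice and 74.3 ± 13.8 in treated mice, and 3 treated mice were below the lowest PBS mouse. Its log2 fold change of -0.24 ± 0.11 was not called (adjusted p = 0.0893).

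The 2 catalytic subunits of succinate dehydrogenase lay on opposite sides of PBS, and neither was called. Sdha was at 301 ± 28.3 CPM in PBS mice and 327 ± 31.03 in treated mice (log2 fold change 0.12 ± 0.07, adjusted p = 0.161). Sdhb ran from 72.8 to 197 CPM (median 108) in PBS mice and from 70.3 to 134 CPM (median 82.1) in treated mice. Most treated mice, 7 of 9, were below the PBS median, but only 1 was below the lowest PBS mouse. Sdhb had the most negative log2 fold change of the 9 members, -0.41 ± 0.16, and just missed the threshold (adjusted p = 0.0570).

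The last 2 steps showed little. Fh1 was at 60.9 ± 8.10 CPM in PBS mice and 58.0 ± 7.46 in treated mice (log2 fold change -0.09 ± 0.08, adjusted p = 0.377). Mdh2 was at 246 ± 11.5 CPM in PBS mice and 247 ± 10.4 in treated mice, a log2 fold change of 0.00 ± 0.05 (adjusted p = 0.969).

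Whether treatment acted differently in the sexes was tested as an interaction. No gene of the 16303 was called (edgeR, 0%), while 270 had an unadjusted p under 0.05 (1.66%) and DESeq2 also called 0. For the members every adjusted p was 1.00, and the interaction term (the effect in females minus that in males) had its most negative value for Suclg1, -0.31 ± 0.21 on the log2 scale. In females alone edgeR called 0 of 16209 genes (0%; 3312 at an unadjusted p under 0.05, or 20.4%; 144 by DESeq2). There Sdhb had a log2 fold change of -0.58 ± 0.30 (adjusted p = 0.259), Suclg1 -0.43 ± 0.19 (adjusted p = 0.244), Ogdh 0.30 ± 0.20 and Cs 0.21 ± 0.12, and Suclg1 alone of the 9 had an unadjusted p under 0.05. In males alone edgeR called 0 of 16102 genes (0%; 4440 unadjusted, or 27.6%; 692 by DESeq2). Ogdh was at 0.42 ± 0.15 (adjusted p = 0.140), Cs at 0.17 ± 0.07 (adjusted p = 0.166) and Sdhb at -0.30 ± 0.17 (adjusted p = 0.250), and of the 9 members Ogdh and Cs had an unadjusted p under 0.05. Between PBS females and males 6 of 16039 genes were called (0.0374%; 0.00623% higher and 0.0312% lower in females) and none was a member, with adjusted p from 0.967 to 0.990, and no member was among the 2.5% of genes with an unadjusted p under 0.05. The widest sex difference among members was that of Ogdh, 0.23 ± 0.16 higher in PBS females on the log2 scale.

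Subunits of 1 enzyme can be set against each other within a mouse, which removes the library scale. For 7 pairs of subunits, and for fumarase (Fh1) against the next enzyme of the cycle (Mdh2), the difference in log2 CPM was compared between treatments by an exact permutation test within sex (77616 arrangements, two-sided, p adjusted over all 8 pairs). The pairs were chosen with earlier results of these data known, a choice that the adjusted p does not take into account. Only the E1 and E2 subunits of the 2-oxoglutarate dehydrogenase complex passed. Dlst itself differed little between treatments (below), so this pair adds little to the call of Ogdh. Ogdh exceeded Dlst by 0.79 ± 0.29 (SD) in the 12 PBS mice and by 1.11 ± 0.23 in the 9 treated mice, a shift of 0.36 ± 0.11 (SE, adjusted p = 0.0394), and 8 of 9 treated mice lay above the PBS median. Leaving out any 1 of 8 mice (PBS female 73, PBS males 101 and 90, treated females 71 and 72, and treated males 74, 88 and 89) ended that call, with shifts from 0.31 to 0.36 and adjusted p from 0.0561 to 0.0891.

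Between Sdha and Sdhb the difference was 1.40 ± 0.49 in PBS mice and 1.87 ± 0.33 in treated mice. This shift of 0.51 ± 0.19 was wider than that of Ogdh and Dlst but not called (exact p = 0.0132, adjusted p = 0.0527), and again 8 of 9 treated mice lay above the PBS median. Idh3a against Idh3b moved by 0.11 ± 0.05 (adjusted p = 0.0854), with 9 of 9 treated mice above the PBS median. By contrast Sdhc and Sdhb, a membrane anchor and the iron-sulfur subunit, kept a shift of 0.00 ± 0.06 (adjusted p = 0.956). The other 4 pairs, Idh3a with Idh3g, Suclg1 with Sucla2 or Suclg2, and Fh1 with Mdh2, had shifts between -0.09 and 0.12 and adjusted p from 0.225 to 0.492.

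**Figure D2:**
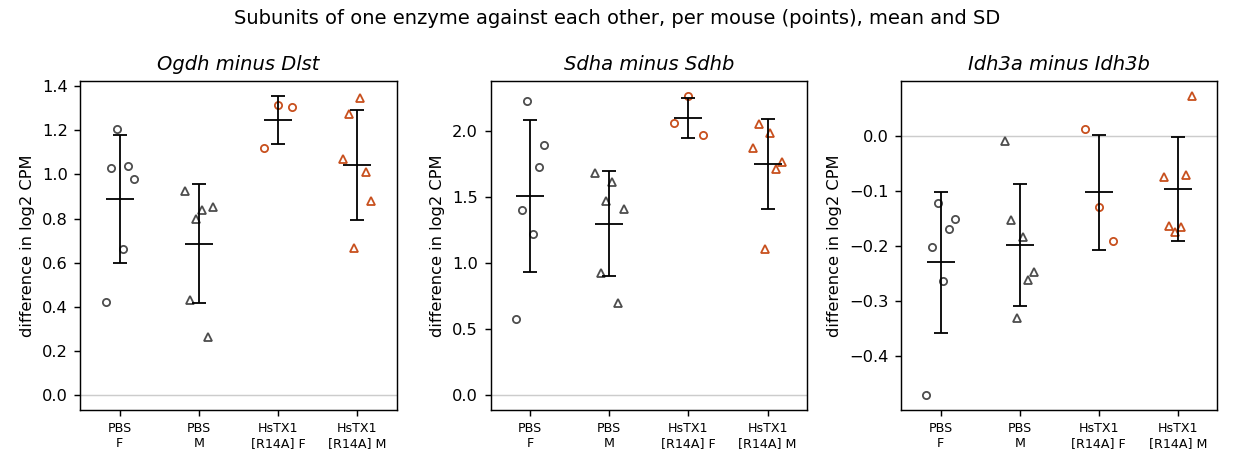
Difference in log2 CPM between 2 subunits of the same enzyme in each mouse, by treatment and sex (F, female; M, male; circles and triangles); black marks give the group mean and SD, and the vertical axes do not all start at 0. Ogdh minus Dlst averaged 0.79 in PBS and 1.11 in treated mice, Sdha minus Sdhb 1.40 and 1.87.

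In the edgeR fit with sex and treatment alone, the remaining cycle subunits leaned lower (other fits are given below). Of 10 listed, 4 were called lower and 0 higher, against 16.1% and 15.5% of all tested genes. The list median log2 fold change was -0.20. The called ones were Idh2, the NADP-dependent mitochondrial isocitrate dehydrogenase (-0.27 ± 0.06, adjusted p = 0.0151), Suclg2, the GTP-forming beta subunit of succinyl-CoA ligase (-0.33 ± 0.10, adjusted p = 0.0226), the complex II anchor Sdhc (-0.39 ± 0.13, adjusted p = 0.0297) and Idh3g, the third isocitrate dehydrogenase subunit (-0.22 ± 0.07, adjusted p = 0.0309). Not called were Ogdhl, an Ogdh paralog (0.34 ± 0.14, adjusted p = 0.0584), the second anchor Sdhd (-0.34 ± 0.14, adjusted p = 0.0675), Dld (-0.16), Sucla2 (-0.18) and Dlst (0.02), among others. Ogdh and Ogdhl, which encode alternative E1 subunits, thus had nearly the same log2 fold change, although only Ogdh was called.

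Upstream of the cycle, 0 of 4 pyruvate dehydrogenase subunits were called. As a measure for this list and those that follow, 15.5% of all tested genes were called higher and 16.1% lower. Pdhb was at -0.18 ± 0.09 (adjusted p = 0.125) and Pdha1 at -0.12 ± 0.06 (adjusted p = 0.153). Of 7 kinases and phosphatases that switch this complex off and on, 3 were called higher, among them the phosphatase Pdp2 (0.39 ± 0.12, adjusted p = 0.0225) and the kinase Pdk2 (0.46 ± 0.16, adjusted p = 0.0349), which have opposite actions on the complex. Of 7 assembly and lipoylation factors 3 were called lower, with a list median of -0.38. Lias, which makes the lipoyl cofactor of the 2-oxoacid dehydrogenases, was at -0.38 ± 0.08 (adjusted p = 0.0151), and Sdhaf2, which helps attach FAD to Sdha, at -0.40 ± 0.12 (adjusted p = 0.0216). Among 19 feeding enzymes, cytosolic counterparts and carriers, 3 were called higher and 2 lower. The 2 lower ones were the pyruvate carrier subunit Mpc1 (-0.60 ± 0.17, adjusted p = 0.0205) and the malic enzyme Me1 (-0.28 ± 0.07, adjusted p = 0.0176). These counts depended on the fit (described below). With the library length slope as a covariate 0 genes of these lists were called. With length and GC trends removed, 2 kinases or phosphatases were called higher, 2 assembly and lipoylation factors lower, and 1 feeding gene each way. With the library name form as a covariate the counts were 1 higher, 1 lower, and 0 higher with 2 lower.

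The counts for other parts of energy metabolism are given beside the members without a test between the lists. Of 72 nuclear respiratory chain subunits 46 were called lower and 0 higher (median -0.47), of 13 mitochondrially encoded mRNAs 12 were called lower (median -0.69), and of 16 glycolytic enzymes 6 were called higher and 2 lower (median 0.15). Over all tested genes 15.5% were called higher and 16.1% lower. The values of these lists depended on the fit. In each fit below fewer genes of the whole table were called as well (counts in the last section). With length and GC trends taken out of each library (described below), 10 chain subunits were called lower and 1 higher (median -0.16). In that fit 5 mitochondrially encoded mRNAs were called lower (median -0.20), and 6 glycolytic enzymes were still called higher and 0 lower (median 0.14). With the library length slope as a covariate 0 of these genes were called, as was the case for the whole table. The medians were then 0.03 for the chain, 0.06 for the 9 members and 0.04 for the glycolytic enzymes, but -0.41 for the mitochondrially encoded mRNAs. With the library name form as a covariate 9 chain subunits were called lower, with a median of -0.43. In that fit 6 mitochondrially encoded mRNAs were called lower (median -0.57), and 2 glycolytic enzymes higher and 0 lower (median 0.12). The 4 other cycle subunits called lower became 2, 0 and 1 in these 3 fits, with list medians of -0.01, -0.03 and -0.21. Sdha and Sdhb belong to both the cycle and the chain, and Sdhb lay at -0.41, close to the median of the chain, while Sdha lay at 0.12.

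Transcript length moved with these values. The longest annotated transcripts of the respiratory chain genes had a median of 1025.5 bases, and of the members the shortest, Sdhb, had the most negative log2 fold change and the longest, Ogdh, the most positive. Between them the order was not strict. Mdh2, at 1606 bases, was at 0.00 and Suclg1, at 2767, at -0.24, while Sdha and Cs, at 2900 and 3003, were at 0.12 and 0.18. For each library a length slope was computed, the slope over genes of log2 CPM, centred on the mean of all mice, against log2 transcript length. It ran from -0.384 to 0.147 in PBS mice (mean ± SD -0.076 ± 0.161) and from -0.142 to 0.234 in treated mice (0.102 ± 0.119), so that long transcripts took a larger share in most treated libraries.

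**Figure D3:**
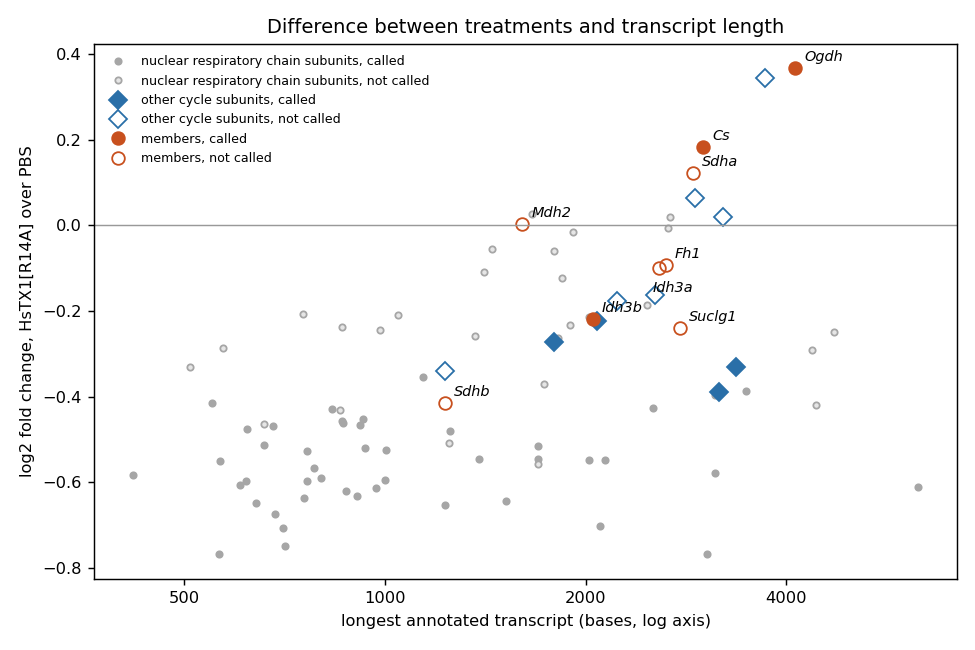
Log2 fold change, treated over PBS mice, against the longest annotated transcript of the gene (bases, log axis) for the 9 members (orange, named), the 10 other cycle subunits (blue) and 72 nuclear respiratory chain subunits (grey); filled symbols were called at a false discovery rate of 0.05. Sdhb, at 1232 bases, lies at -0.41 and Ogdh, at 4127 bases, at 0.37.

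Within the PBS mice alone 7 of 9 members followed this slope (Pearson's r, permutation with 100000 resamples, two-sided, p adjusted over the 9 members). Ogdh rose with it, with r = 0.975 (rho = 0.972, adjusted p = 2.25e-05), and r was 0.958 without the 2 libraries of most extreme slope. Sdhb fell with it, with r = -0.971 (rho = -0.909, adjusted p = 2.25e-05, r = -0.940 without those 2). Idh3b (r = -0.964, rho = -0.895, r = -0.893 without 2) and Suclg1 (r = -0.932, rho = -0.762, r = -0.882 without 2) fell likewise, and so did Fh1 (r = -0.817, rho = -0.615, adjusted p = 0.00191, r = -0.548 without 2) and Idh3a (r = -0.769, rho = -0.720, adjusted p = 0.00437, r = -0.670 without 2). Cs rose with the slope (r = 0.826, rho = 0.867, adjusted p = 0.00155, r = 0.706 without 2). Sdha (r = 0.471, rho = 0.524, adjusted p = 0.136) and Mdh2 (r = 0.286, rho = 0.294, adjusted p = 0.368) did not pass. The permutation p of Ogdh, Sdhb, Idh3b and Suclg1, before adjustment, was 1e-05, the smallest that these resamples can give. The slope was taken over all tested genes with a length, the members included. How large a share of all genes follows the slope was not tested, so 7 of 9 is not a trait particular to the members.

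Suclg1, with a long annotated form of 2767 bases but a principal form of 1519, followed the slope in the direction of the short genes. Fh1 and Idh3a also fell with the slope although their transcripts are longer than that of Mdh2, which did not follow it. The order of the 9 genes by length is therefore not their order by r.

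**Figure D4:**
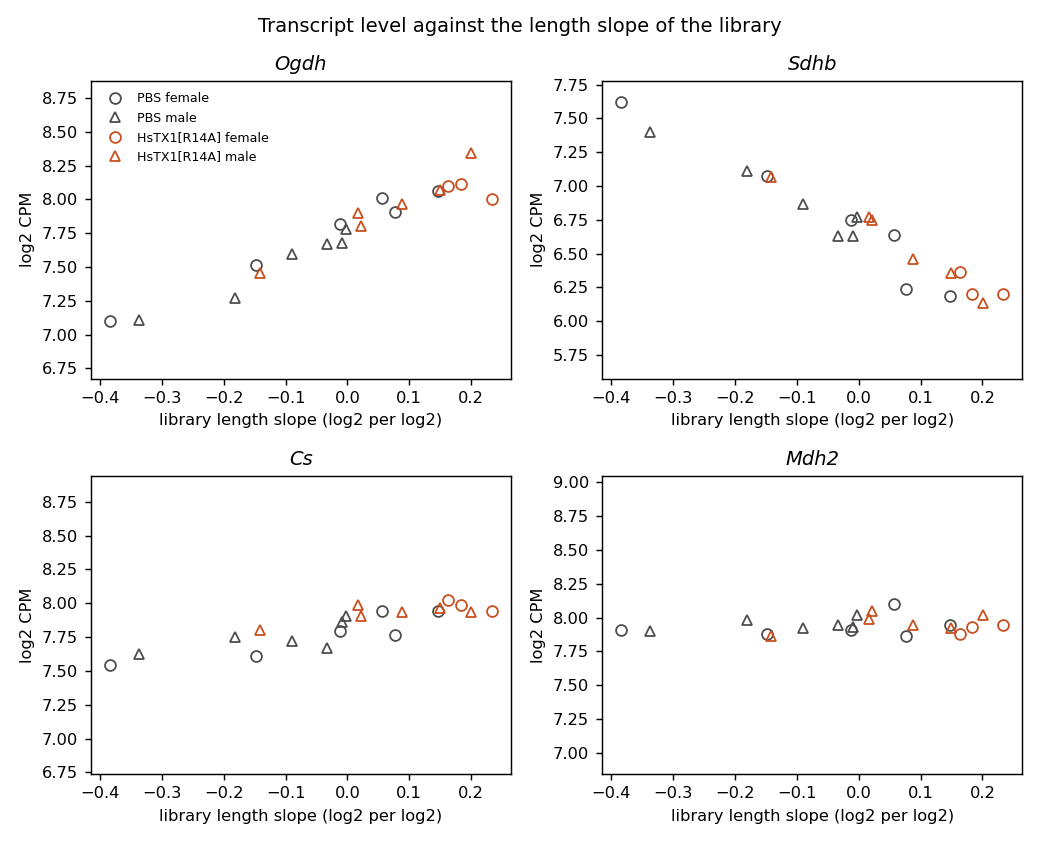
Level (log2 CPM) of Ogdh, Sdhb, Cs and Mdh2 in each mouse against the length slope of its library (change in log2 CPM per unit of log2 transcript length), on vertical axes of equal span; circles are female, triangles male, grey PBS and orange HsTX1[R14A]. Over the 12 PBS mice r was 0.975 for Ogdh, -0.971 for Sdhb, 0.826 for Cs and 0.286 for Mdh2.

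The cycle did not vary as 1 unit between PBS mice. Among the 36 pairs of members, 18 had a positive and 18 a negative Pearson's r over the 12 PBS mice, and 12 of the positive and 8 of the negative ones passed the permutation test adjusted over the 36 pairs. For the pairs below, r is also given without the 2 libraries farthest from the median level of the gene set against Sdhb. Sdhb moved with Suclg1 (r = 0.972, rho = 0.839, adjusted p = 0.00018 and 0.00389, r = 0.960 without 2 libraries) and with Idh3b (r = 0.952, rho = 0.888, adjusted p = 0.00018 and 0.00315, r = 0.893 without 2), and it moved against Ogdh (r = -0.922, rho = -0.874, adjusted p = 0.00018 and 0.00315, r = -0.834 without 2). Sdha and Sdhb, parts of the same enzyme, were not related at this number of mice (r = -0.338, rho = -0.294, adjusted p = 0.375 and 0.454, r = -0.135 without 2). In the 10 PBS mice whose library names begin with SAMP8 (below), r was 0.974 for Sdhb with Suclg1, 0.958 with Idh3b, -0.956 with Ogdh and -0.347 with Sdha. All these pairs share their libraries, and so also the length slope, and pairs of other genes were not tested beside them.

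With the length slope as a covariate, 0 of the 9 members and 0 of 16303 genes were called for treatment (edgeR; 1865 genes at an unadjusted p under 0.05). Ogdh went from a log2 fold change of 0.37 to 0.01 (adjusted p = 0.979), Cs from 0.18 to 0.06 (adjusted p = 0.616), and Idh3b from -0.22 to 0.02 (adjusted p = 0.898), which turned its direction. Sdhb, not called in either fit, went from -0.41 to 0.11 (adjusted p = 0.432). The shift between Ogdh and Dlst went from 0.36 to 0.04 (permutation, not exact with this covariate, adjusted p = 0.481) and that between Sdha and Sdhb from 0.51 to -0.04 (adjusted p = 0.481). Because the slope itself was higher in most treated mice, treatment and slope cannot be told apart in this fit. When each library's trend on length and GC content was removed instead, 1 member was called, Cs (0.24 ± 0.06, adjusted p = 0.0195). Ogdh was then at 0.19 ± 0.07 (adjusted p = 0.0542), Sdha at 0.19 ± 0.07 (adjusted p = 0.0545), Mdh2 at 0.20 ± 0.07 (adjusted p = 0.0685) and Idh3b at -0.02 ± 0.05 (adjusted p = 0.776).

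**Figure D5:**
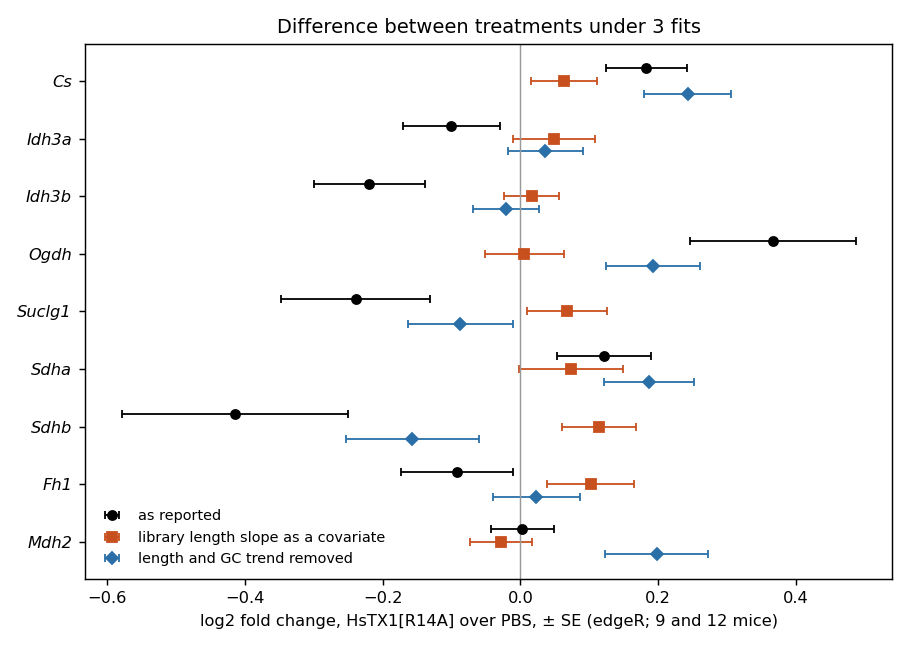
Log2 fold change, treated over PBS mice, with its SE for each member as reported (black circles), with the library length slope as a covariate (orange squares) and with each library's length and GC trend removed (blue diamonds). Cs was called as reported and with the trend removed, and 0 members were called with the covariate.

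Library names in the deposited table have 2 forms, SAMP8 (10 PBS and 5 treated mice) and SAMP (2 PBS and 4 treated mice), and what they stand for is not given in the sources used here. Within the SAMP8 form alone the log2 fold changes were 0.22 for Cs (adjusted p = 0.0748), 0.38 for Ogdh (adjusted p = 0.0945) and -0.22 for Idh3b (adjusted p = 0.171), and Ogdh against Dlst shifted by 0.40 (exact permutation, adjusted p = 0.109). Within the SAMP form alone, 2 against 4 mice, they were 0.02, 0.15 and -0.16, with adjusted p from 0.855 to 0.971. With the form as a covariate they were 0.16 (adjusted p = 0.0607), 0.32 (adjusted p = 0.0673) and -0.21 (adjusted p = 0.0862). No member was called in any of these fits. The 2 PBS libraries of the SAMP form, female 104 and male 102, also held more counts of Lars2 and of the small RNAs 7SK and 7SL than any other library, 0.202% and 0.0723% against 0.00393% to 0.0502%. The treated libraries of the SAMP form were at 0.0502% (male 89), 0.0454% (male 92), 0.0294% (female 98) and 0.00927% (male 81). The highest library of the SAMP8 form, treated female 71, was at 0.0352%. Without both PBS libraries of the SAMP form 3 members were again called, 2 higher and 1 lower. The count over all genes in that fit is not given here, so these calls cannot be read against the whole table.

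Whole brain holds many cell types, and fewer cells of a type cannot be told apart from less RNA per cell. Markers of neurons, astrocytes, oligodendrocytes and microglia were present in every group. Of 10 neuron markers 2 were called higher (summed level 5336 to 8121 CPM in PBS and 6361 to 9530 in treated mice), of 8 astrocyte markers 4 lower (3331 to 4987 and 3339 to 5038), of 8 oligodendrocyte markers 4 lower (4396 to 6728 and 3315 to 4907) and of 9 microglia markers 3 lower (413 to 604 and 347 to 523). Among 7 endothelial markers 1 was called higher (69.8 to 130 and 84.2 to 146), and among 6 ependymal markers 3 lower (17.9 to 44.1 and 14.2 to 25.6). Of 7 choroid plexus markers (69.4 to 1132 and 58.5 to 835) and 5 erythrocyte genes (5.82 to 157 and 15.1 to 87.6) 0 were called. Over all tested genes 15.5% were called higher and 16.1% lower. No listed marker was at 0 throughout. Their part in the differences of Cs, Ogdh and Idh3b was not tested.

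The genes whose level was most like the mean of the 9 members over the 12 PBS mice were Psmc2, a proteasome subunit (Pearson's r = 0.957), Chchd4, a mitochondrial import factor (0.947), Alg5 (0.942), Gabarapl1 (0.939) and Fdft1 (0.938). They were picked as the 5 highest values of all tested genes, so r is a description without a test. None of the 5 was called for treatment, with log2 fold changes from -0.22 to -0.05 and adjusted p from 0.113 to 0.644.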

How the data were processed

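Per the methods and the submitters' processing notes, the authors aligned reads to GRCm38 with STAR, and the deposited table gives Salmon estimated counts for 16318 genes, not normalized. Its columns of fold change, p-value and FDR from limma, and 53 further per-sample columns (16 of counts and 37 of CPM), were not used. Whole numbers, to a tolerance of 0.01, made up 90.496% of the estimated counts, which were rounded before use. Totals ran from 14917171 to 47613770 per mouse, and the spread between mice, more than read sampling, limits precision at 810 or more counts per member. Sex genes matched the labels in 21 of 21 mice. No pair of libraries of the same group agreed within sampling noise (48 pairs, mean chi-square per gene 7.58 to 288).

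After filterByExpr and TMM scaling, differences were tested by edgeR 4.0.16 (quasi-likelihood, sex and treatment as terms) in R 4.3.3, with Benjamini-Hochberg adjustment over all tested genes. A prior count of 2 was added for log2 CPM. Lengths came from the longest GENCODE transcript (99.5% of tested genes, members included). Permutation tests used NumPy 2.4.6, with ranks from SciPy 1.17.1. Members, gene lists and subunit pairs were chosen with earlier results of these data known. Named genes are the members, all other cycle subunits, the 2 genes of smallest p in each of 4 pathway lists and the 5 genes most like the members' mean. One of the other cycle subunits is not reported here. Scripts were tested on simulated data. Alternatives used limma 3.58.1, DESeq2 1.42.0, sva 3.50.0, RLE scaling, other filters, covariates and each mouse left out. What the filter behind the 16318 genes was is not given in the sources used here.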

Additional observations from a re-analysis of the deposited data

Results flagged for a closer look

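Mdh2 in PBS females had 1 mouse far above the others. PBS female 104 was at 274 CPM while the other 5 lay between 233 and 246 CPM, a gap of 0.666 of the whole range. Of 27 groups of 6 mice tested in this way, 1 stood out, and chance gives about 1 in 20. This library is 1 of the 2 PBS libraries of the SAMP name form. Leaving it out left Mdh2 uncalled.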

How the results depend on the processing

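The 3 members called for treatment became 4 with DESeq2 and with at least 10 counts in every mouse (Sdhb added, adjusted p = 0.0408 and 0.0492), 2 with RLE scaling (Idh3b at 0.0501), and stayed 3 with limma/voom, sample quality weights and a minimum of 1 count. They became 0 with the length slope as a covariate, with the name form as a covariate, with 1 surrogate variable and in either name form alone, and 1 without a sex term (Cs). With length and GC trend removed the number was 1, also with the name form added as a covariate, a setting chosen after seeing the data, like leaving out both PBS libraries of the SAMP form. The corresponding counts over all genes were 5144 as reported, 0 with the slope, 1999 with the name form, 1104 with the surrogate variable, 0 in each name form alone, 2984 without a sex term, 2686 with the trend removed and 1150 with trend and form. For the other settings the count over all genes is not given here, so their member counts cannot be read against the whole table. Idh3b reversed to 0.017 with the slope as a covariate. The cause was not tested.

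With each mouse left out in turn, 0 to 5 members and 2289 to 6614 genes were called, with 0 members without PBS male 90 and 5 without treated male 93. Cs lost its call without PBS male 90 (0.17, adjusted p = 0.0538) or treated female 72 (0.17, adjusted p = 0.0535), and Ogdh without PBS males 101 and 90 or treated males 88 and 81 (0.31 to 0.34, adjusted p from 0.0504 to 0.0583). Idh3b lost it for 13 of 21 mice (PBS females 103, 73 and 104, PBS males 101, 82 and 90, treated females 98, 71 and 72, treated males 74, 88, 81 and 89; -0.18 to -0.23, adjusted p from 0.0511 to 0.111). Sdhb gained one for 5 mice (PBS females 84 and 85, PBS males 82 and 83, treated male 93; adjusted p from 0.0244 to 0.0498) and Suclg1 without treated male 93 (-0.28, adjusted p = 0.0384). No result changed direction with a mouse left out, among those called. In males 0 to 1 members and 0 to 1879 genes were called (Ogdh without treated male 93, 0.50, adjusted p = 0.0462), and for the interaction, females and sex 0 members under every setting run.

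Of the 8 pairs compared within a mouse, the 1 called stayed 1 with RLE scaling and a prior count of 0.5. The number became 0 in the SAMP8 form alone. With the slope as a covariate 2 passed the permutation test. Fh1 minus Mdh2 reversed to 0.13 ± 0.05 (SE, adjusted p = 0.0240) and Suclg1 minus Suclg2 reached 0.25 ± 0.11 (adjusted p = 0.0450). The slope differed between treatments and stayed with its mouse while labels were permuted. The permutation p of that fit is therefore not exact and can be too small, so no call is drawn from it. With mice left out the number called was 0 to 3. Sdha minus Sdhb was called without PBS females 84 or 85, PBS males 102 or 83, or treated male 93 (0.54 to 0.58, adjusted p from 0.0149 to 0.0459). Idh3a minus Idh3b was called without PBS male 102 (0.13, adjusted p = 0.0257) and Idh3a minus Idh3g without treated male 81 (0.17, adjusted p = 0.0407). The number of members following the slope stayed 7 within the SAMP8 form. No paired analysis was possible because each mouse number occurs in 1 group only and the cage, within which treatment was assigned at random, is not given in the labels.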
